A study of Mus musculus with 4 samples.

Results

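Cycling thymocytes of a thymus in autonomy were divided by whether their T cell receptor (TCR) beta chain was called productive, and their transcripts were compared. A cell belonged to the set when its barcode had 5000 or more UMIs (unique molecules) of gene expression, 4 or more UMIs of Mki67 and Top2a together, which mark dividing cells, and 1 or more of Cd8a and Cd8b1, the chains of the CD8 coreceptor. In the autonomy library 203 barcodes met these limits, of 8961 barcodes in the whole series. Of the 203 cells, 66 had no productive full-length contig (assembled transcript) of the TCR beta locus (TRB), and 137 had at least 1. In the turnover library 542 cells met the same limits, 21 without and 521 with a productive TRB contig.

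Both libraries came from wild-type mouse thymi that had been transplanted and were taken 28 days later. Autonomy means that T cell production runs on cells of the thymus itself, and turnover that progenitors from outside take the place of resident thymocytes. The sorted cells covered DN3-DN4, ISP (immature single positive) and DP (double positive) thymocytes. For each condition a droplet 5′ assay gave 1 library of gene expression and 1 of rearranged TCR chains, V(D)J. The labels describe neither the hosts nor the number of animals. With 1 library a condition there is no spread between animals and no test. Every interval below is a 95% interval that covers counting error only and treats UMIs and cells as independent.

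A developing T cell first rearranges its TCR beta genes. At beta-selection, a beta chain read in frame pairs with the invariant pre-TCR alpha chain, encoded by Ptcra. The signal of this pre-TCR drives proliferation, entry into the ISP and DP stages and a fall in Ptcra and Il2ra expression. Notch signals from the stroma support the DN3 stage before this point, and E proteins, held in check by Id proteins, set the threshold of the checkpoint. Cells with no functional beta chain normally stop at the DN3 stage.

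The CDR3, the stretch where the V, D and J segments are joined, carries the reading frame, and the chains on which the division of the cells turned are given here as deposited, 5′ to 3′. Capitals mark the usual first 6 bases of the CDR3 of that V segment, taken over the productive chains of both libraries, or the 6 bases that follow where the deposited CDR3 begins 2 bases inside that start. The first pair was called productive in autonomy cycling cells although the length counted from the usual start is not a whole number of codons, and the next chain uses the same V segment in frame. Then come 3 unproductive chains of the cells without a productive TRB and 1 of a turnover cell.
TRBV13-1 with TRBJ2-4, productive call: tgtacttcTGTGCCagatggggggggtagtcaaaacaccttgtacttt
TRBV13-2 with TRBJ2-7, productive call: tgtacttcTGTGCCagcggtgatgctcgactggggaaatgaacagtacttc
TRBV13-1 with TRBJ1-1, productive call: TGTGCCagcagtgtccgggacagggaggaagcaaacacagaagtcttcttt
TRBV1 with TRBJ2-5, unproductive call: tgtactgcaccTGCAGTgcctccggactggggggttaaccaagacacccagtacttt
TRBV15 with TRBJ2-7, unproductive call: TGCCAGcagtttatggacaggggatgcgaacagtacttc
TRBV15 with TRBJ2-4, unproductive call: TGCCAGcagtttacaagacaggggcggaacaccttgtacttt
TRBV12-1 with TRBJ2-5, unproductive call in turnover: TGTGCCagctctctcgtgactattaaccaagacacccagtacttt

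The first TRBV13-1 chain had a CDR3 of 48 bases that began 8 bases before the usual start, which left 40 bases from that start. It was carried by 17 of the autonomy cycling cells and by 58 cells of the library, with a median of 3 UMIs a cell, and all 17 cells had Xist. The TRBV13-2 chain was 51 bases long, 43 of them from the usual start, and was carried by 5 cycling cells. The in-frame TRBV13-1 chain was 51 bases long from the usual start and was found in 12 cycling cells with a median of 161.5 UMIs. TRBV13-1 lies at chr6:41116036-41116468 and TRBJ2-4 at chr6:41543362-41543410 (GRCm38.p6, the build also called mm10), in the TCR beta locus, with TRBJ1-1 at chr6:41533864-41533911. Of the unproductive chains, the TRBV1 chain was carried by 4 cells and left 46 bases from its usual start, and both TRBV15 chains, in 4 and 3 cells, left 41 and 44. The TRBV15 chain with TRBJ2-7 was also found beside a productive chain in 7 cells with a productive TRB. The TRBV12-1 chain of the turnover cell was 45 bases long from the usual start and held no stop codon, yet it was called unproductive.

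The share of cycling cells without a productive TRB was 32.5% in autonomy (26.1 to 39.4) and 3.87% in turnover (2.41 to 5.86), a ratio of 8.39 (5.28 to 13.3). In cells of the same depth with Cd8 but under the Mki67 and Top2a limit, the share was 17.3% in autonomy (12.9 to 22.5, 45 of 260 cells) and 13.2% in turnover (7.41 to 21.2, 14 of 106 cells), and these intervals overlap. Over all barcodes of any depth it was 29.5% in autonomy (1352 of 4587) and 13.5% in turnover (590 of 4374), so without matching for depth a higher share in autonomy was not limited to cycling cells. Contig coverage was lower in autonomy. Cycling cells with a productive TRB had a median of 44 TRB contig UMIs in autonomy and 98 in turnover, and those without one 14 and 60. The part of coverage in these shares and their ratio was not tested. All 66 autonomy cells had a TRB contig of some kind, and 56 of them had a full-length unproductive one, against 54 of the 137 cells with a productive TRB. Of the 21 chains with a CDR3 in the 66 cells, 15 were out of frame, 2 were in frame with a stop codon, 1 was in frame without one and 3 had no usual start, and these chains stood in 31 cells. A full-length contig with no CDR3 call was found in 41 of the 66 cells and in 44 of the 137, most often TRBV13-1 with TRBJ2-4 (11 of the 66 cells) and TRBV13-3 with TRBJ2-5 (7 cells). In turnover, 7 of the 9 chains of the cells without a productive TRB were in frame without a stop codon, all of them TRBV12-1.

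Counting codons from the usual start divided the autonomy cells further. In 27 of the 203 cells (13.3%, 8.95 to 18.8) every productive call was out of frame, against 0 of 542 turnover cells, with an exact upper limit of 0.678%. Over the whole libraries 227 of 3563 productive autonomy contigs (6.37%) and 30 of 4093 turnover contigs (0.733%) were out of frame, and 167 of the autonomy ones used TRBV13-1. The 27 cells carried 9 distinct chains, 18 cells with TRBV13-1, 5 with TRBV13-2 and 3 with TRBV5. Cells with no in-frame chain by this count were 44.8% in autonomy (37.9 to 51.9) and 2.58% in turnover (1.42 to 4.30). The check was added after the data were seen, and whether these contigs are read in another frame in the cell was not tested. A second group among the 137 cells was also defined after the data were seen: 28 cells had 3 or more UMIs over S1pr1, Klf2, Ms4a4b, Gimap4 and Nkg7, transcripts of mature T cells, against 1 of the 66 cells without a productive TRB. This left 82 other cells with a productive TRB, called in frame or with no usual start found, and without mature transcripts.

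**Figure D1:**
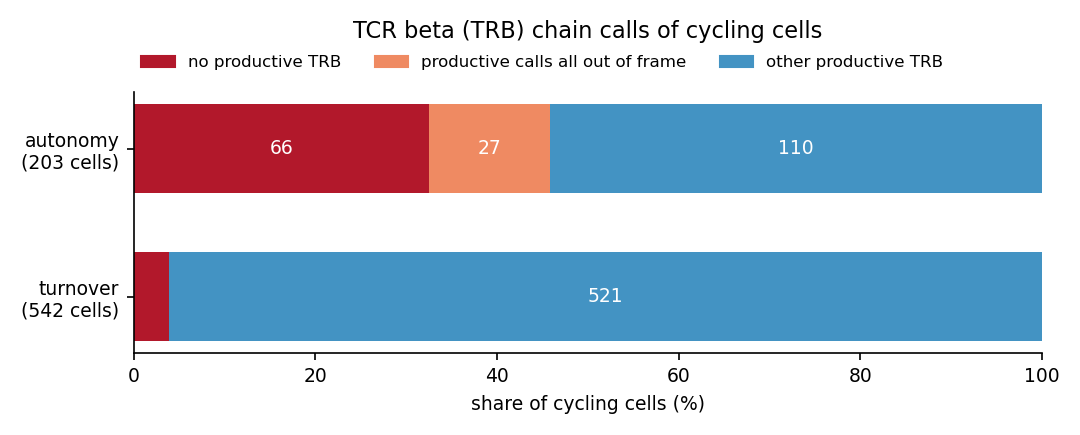
Share of cycling cells (x axis, percent) by the state of their TCR beta chain in autonomy and turnover, with cell numbers inside the bars. Cells without a productive call and cells whose productive calls were all out of frame made up 32.5% and 13.3% of the autonomy cells, against 3.87% and 0 in turnover.

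The groups differed in depth and in the cells they held. The median was 13729 UMIs in autonomy cells without a productive TRB and 17512 in cells with one, and the median TRB contig UMIs were 14 and 44. Low contig coverage could leave a productive chain unseen, and its part in the result was not tested. Mki67 and Top2a UMIs, by which the cells of both groups were admitted, were similar, with medians of 21 and 23. A productive TCR alpha (TRA) contig was found in 3 of 66 cells without and 25 of 137 cells with a productive TRB, and in 0 of the 27 out-of-frame cells. Chains were shared between cells: 80 of the 137 autonomy cells (58.4%) had their leading productive chain in common with another cycling cell, the most frequent one in 16 cells, against 39 of 521 in turnover (7.49%). Xist without a Y-linked UMI was seen in 43 of 66 cells without and 91 of 137 cells with a productive TRB. Y-linked UMIs without Xist were seen in 14 and 37 cells, so cells of both sexes stood in both groups. Both kinds of UMI were found in 0 of the 66 and 2 of the 137 cells. The libraries shared 31 barcodes, 0 of them among the cycling cells.

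Autonomy cells without a productive TRB had more of the transcripts of the DN3 stage and of the pre-TCR alpha chain, and fewer of Cd5 and Id3, which follow TCR signals, and of genes that mark mature T cells. Levels are the UMI counts of the pooled cells scaled to a common total (CPM), and a ratio is the level without over the level with a productive TRB. Among 4817 genes with 100 or more UMIs, 22 were 2-fold or more higher without a productive TRB (0.457%) and 50 were 2-fold or more lower (1.04%), 9 of the 50 being TCR segment genes, which the division by chain touches directly. The median gene had a log2 ratio of 0.04. Genes 1.5-fold or more higher were 3.32% and 1.5-fold or more lower 2.66% of those tested, and the gene lists below are read against these shares.

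**Figure D2:**
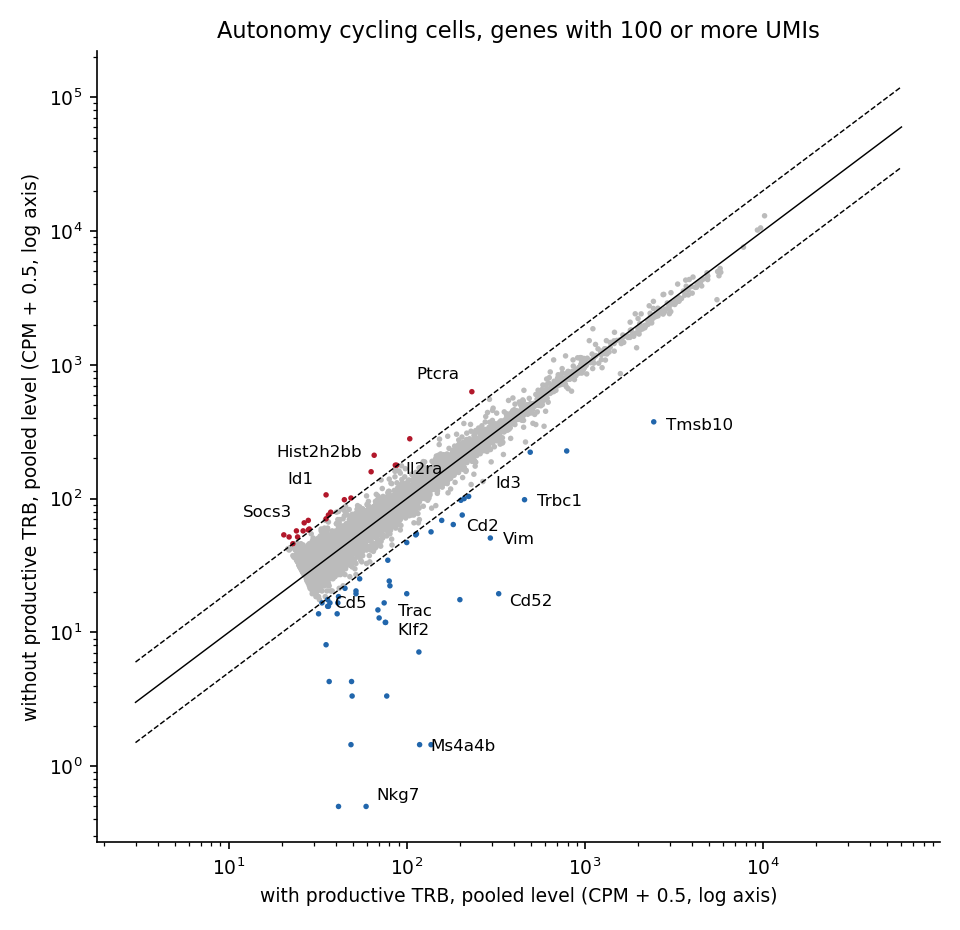
Pooled levels of 4817 genes in autonomy cycling cells without (y axis) and with a productive TRB (x axis), both in CPM plus 0.5 on log axes. The solid line marks equal levels and the dashed lines 2-fold; red genes (22) are 2-fold or more higher and blue genes (50) 2-fold or more lower without a productive TRB, with Ptcra the most abundant red one.

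Of the 9 tested genes of the DN3 list, 6 were 1.5-fold or more higher and 0 lower without a productive TRB, with a median log2 ratio of 0.87. Rag1 and Rag2, which are among the 6, also stand in the DP list and do not tell these stages apart. Ptcra (chr17:46755663-46763712) had 629.7 CPM without and 231.7 CPM with a productive TRB, a ratio of 2.72 (2.43 to 3.03). Ptcra UMIs were seen in 62 of 66 cells without and in 89 of 137 cells with a productive TRB. After each cell was thinned to 5000 UMIs these were 84.8% and 48.2% of cells. Il2ra (chr2:11642792-11693194) encodes the interleukin-2 receptor alpha chain CD25, a marker of DN3 cells. It had 177.3 CPM without and 85.8 CPM with a productive TRB, a ratio of 2.07 (1.70 to 2.51). It was detected in 34 of 66 and 55 of 137 cells, so the cells of both groups ranged from none to high levels.

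Notch1, the receptor that supports DN3 cells, had 277.9 CPM without and 152.4 CPM with a productive TRB, a ratio of 1.82 (1.57 to 2.12). Dtx1, a Notch target, had 188.7 and 123.4 CPM, a ratio of 1.53 (1.28 to 1.83). The Dtx1 ratio was 1.06 without cells with gamma-delta constant or macrophage UMIs. The Notch list had 4 of 5 tested members 1.5-fold or more higher and 0 lower, but these are Notch1, Dtx1, Ptcra and Il2ra, which the DN3 list also holds, so it adds no member. Notch3 and Hes1 had ratios of 1.47 (0.779 to 2.71) and 1.24 (0.667 to 2.23), intervals that include 1. Rag1 and Rag2, the recombinase that cuts the TCR loci, had ratios of 2.03 (1.67 to 2.47) and 1.959 (1.60 to 2.39), and Dntt, which adds bases at the joins, 1.38 (1.28 to 1.499).

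Id1 (chr2:152736251-152737410), an inhibitor of E proteins, had 106.2 CPM without and 34.75 CPM with a productive TRB, a ratio of 3.06 (2.31 to 4.06). It was detected in 38 of 66 and 33 of 137 cells. Id3 (chr4:136143822-136145392), the other Id gene of thymocytes and one induced by the pre-TCR, went the other way, with 133.7 CPM without and 267.2 CPM with a productive TRB, a ratio of 0.5005 (0.415 to 0.6). The E protein genes Tcf3 and Tcf12 had ratios of 1.03 (0.880 to 1.21) and 1.40 (1.19 to 1.65). Socs3, a suppressor of cytokine signalling, had 65.4 and 26.1 CPM, a ratio of 2.51 (1.78 to 3.54), and was the only one of 7 tested members of the interleukin-7 receptor and STAT5 list past 1.5-fold.

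Further genes with a high ratio lay outside these lists. Arhgef10l had 53.1 CPM without and 19.9 CPM with a productive TRB, a ratio of 2.67 that turned to 0.4996 without cells with gamma-delta constant or macrophage UMIs (23 and 47 cells left), and Padi4, which converts arginine in proteins to citrulline, had 56.9 and 23.5 CPM. P2rx1, an ATP-gated ion channel, had 97.7 and 44.2 CPM, a ratio of 2.21 (1.68 to 2.899), and Myl10, a myosin light chain, 51.2 and 21.4 CPM. Gm266, seen in 24 and 20 cells, had 0 UMIs in both turnover groups. Its autonomy ratio of 2.48 was 1.10 without cells with gamma-delta constant or macrophage UMIs. The Padi4 ratio of 2.42 was 1.01 in cells with Y-linked and no Xist UMIs. Hist2h2bb, Hist1h2ak and Gm42743 had ratios of 3.23, 2.70 and 2.53, but 1 cell without a productive TRB held 124 of the 222, 128 of the 295 and 93 of the 167 UMIs of that group, and without the cell the ratios were 1.45, 1.55 and 1.14. No such cell stood behind Ptcra or Id1, whose ratios without their highest cell were 2.65 and 2.73.

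Some genes that follow pre-TCR and TCR signals were lower without a productive TRB. Of 5 tested members of the response list, 2 were 1.5-fold or more lower and 0 higher, with a median log2 ratio of -0.44. Cd5 (chr19:10718107-10739026), a membrane brake on TCR signals whose level tracks their strength, had 12.3 CPM without and 69.5 CPM with a productive TRB, a ratio of 0.177 (0.0927 to 0.311). It was seen in 5 of 66 and 64 of 137 cells, and 9 of the 13 UMIs without a productive TRB lay in 1 cell. Cd27, a costimulatory receptor raised at beta-selection, had a ratio of 0.737 (0.594 to 0.908), and Cd2, an adhesion receptor, 63.5 and 182.1 CPM, a ratio of 0.349 (0.266 to 0.451). In the positive selection list, 3 of 5 tested members were lower, Itm2a at 0.369 (0.219 to 0.592), Cd5, and Tox at 0.398 (0.224 to 0.666). Itm2a was at 0.769 after each cell was thinned to 5000 UMIs. The reference for these ratios is all 137 cells, the 28 cells with mature transcripts among them.

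Components of the receptor did not move as a block. Of 18 tested members of the TCR complex and signalling list, 2 were 1.5-fold or more higher (Ptcra and the kinase gene Fyn) and 3 lower (Trac, Trbc1 and Cd2). The CD3 chain genes Cd3e, Cd3d and Cd3g had ratios of 1.19 (1.10 to 1.29), 1.02 (0.926 to 1.11) and 1.17 (1.07 to 1.27), and Cd3e and Cd3g were at 0.956 and 0.858 without cells with gamma-delta constant or macrophage UMIs. Trac, the TCR alpha constant gene, had 11.4 CPM without and 75.7 CPM with a productive TRB, a ratio of 0.150 (0.0765 to 0.268). The TCR beta constant gene Trbc2 had 1107 and 1116 CPM, a ratio of 0.992 (0.927 to 1.06), while Trbc1 had 97.7 and 458.3 CPM, a ratio of 0.213 (0.173 to 0.261). The Trbc1 ratio was 0.875 in cells with Xist and no Y-linked UMI. Trbc1 is joined to TRBJ1 segments, and a TRBJ1 contig was present in 2 of 66 cells without and 27 of 137 cells with a productive TRB. The part of TRBJ1 use in the Trbc1 ratio was not tested. Trdc, the delta constant gene, had a ratio of 0.299 (0.189 to 0.453).

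Most stage and cycle genes outside these groups differed less. The cells of both groups had been admitted by their Cd8a, Cd8b1, Mki67 and Top2a UMIs. The Cd8 and cycle values are thus no independent measure of stage or cycle. Cd8a, Cd8b1 and Cd4 had ratios of 0.936 (0.869 to 1.01), 0.999 (0.923 to 1.08) and 1.14 (0.881 to 1.47), and a Cd4 UMI was found in 33 of 66 and 74 of 137 cells. The Cd4 ratio turned to 0.641 when the cells were divided by reading frame and cells with mature transcripts left out, and was 1.88 in cells with Y-linked transcripts. A Cd4 UMI was found in 10 of the 27 out-of-frame cells and in 56 of the 82 other cells. Of 17 tested members of the DP list, 2 were 1.5-fold or more higher (Rag1 and Rag2) and 1 lower, the chemokine receptor gene Ccr9, which thymocytes gain after beta-selection, at 0.273 (0.169 to 0.420). Of 30 tested S phase genes and 30 G2 and mitosis genes, 0 passed 1.5-fold in either direction, with median log2 ratios of -0.11 and 0.22. The 20 cytosolic ribosomal protein genes, 20 oxidative phosphorylation genes and 11 mitochondrially encoded genes had 0 past 1.5-fold, with medians of -0.14, -0.00 and 0.27. In the growth list 1 of 16 tested genes passed, the amino acid transporter gene Slc7a5 at 0.596 (0.381 to 0.905), and Myc had a ratio of 1.39 (1.18 to 1.64). Myc was at 0.698 with a Cd4 UMI required and at 1.86 with the cells divided by reading frame, and Slc7a5 was at 1.03 without cells with gamma-delta constant or macrophage UMIs. Btg2, an antiproliferative gene and p53 target, had 175.4 and 93.0 CPM, a ratio of 1.89 (1.55 to 2.29).

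Of the 12 lowest genes, 4 stand in the mature list (Ms4a4b, Cd52, Gimap4 and Klf2), and the others include Trac and Cd5. Ms4a4b, a membrane protein gene of mature T cells, had 1 UMI without and 325 UMIs with a productive TRB. Nkg7 and Ctsw, of cytotoxic granules, had 0 UMIs without against 162 and 113 with a productive TRB, ratios of at most 0.0485 and 0.0695 with a floor of 3 counts over the group. Cd52 had 19.0 and 328.0 CPM, and Tmsb10, an actin-binding peptide gene, 374.6 and 2438 CPM. Itgb7, Cd163l1, Gimap4, Klf2 and Vim had ratios of 0.0582, 0.0782, 0.105, 0.151 and 0.171. The 28 cells with mature transcripts, which were chosen by Ms4a4b, Nkg7, Klf2 and Gimap4 among others, held 794 of the 906 Cd52 UMIs, a gene the choice did not use. Of 9 tested members of the mature list, 7 were 1.5-fold or more lower and 0 higher. In a pooled level, fewer cells with a transcript and less of it per cell cannot be told apart.

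Set against the 82 other cells with a productive TRB and without mature transcripts, the DN3 and receptor differences named here kept their direction. Of 3835 genes, 17 were 2-fold or more higher (0.443%) and 24 lower (0.626%), with 2.22% and 2.4% past 1.5-fold. Ptcra had a ratio of 3.39 (2.95 to 3.91) with 185.6 CPM in the 82 cells, Il2ra 2.57 (2.01 to 3.28) with 69.1 CPM, and Id1 5.93 (3.89 to 9.32) with 17.9 CPM. Notch1, Rag1 and Rag2 were at 1.81, 1.89 and 1.76, and Cd5, Trac, Cd2 and Id3 at 0.140, 0.129, 0.350 and 0.497. Of the DN3 list, 5 of 9 tested members were 1.5-fold or more higher and 0 lower, and of the response list 3 of 5 were lower (Id3, Cd5 and Cd27) and 0 higher. Klf2 and Gimap4, used to define the mature cells, were at 0.889 (0.396 to 1.91) and 0.741 (0.163 to 2.77), and Tmsb10 at 0.414 (0.370 to 0.463). The 66 cells without a productive TRB were not filtered in this way and kept their 1 cell with mature transcripts. Among the 66, the highest cell of each gene held 5 of 12 Klf2, 3 of 4 Gimap4 and 213 of 395 Tmsb10 UMIs. The interferon list had 3 of 6 tested members higher, among them Bst2, a surface antiviral protein, at 2.06 (1.72 to 2.45) and Isg15. Of the 308 Bst2 UMIs in the 66 cells, 56 lay in 1 cell.

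In Ptcra, Il2ra and Id1, the 27 cells whose productive calls were all out of frame lay near the cells without a productive call. Ptcra was at 589.7 CPM in the 27 cells, Il2ra at 205.0 CPM and Id1 at 128.9 CPM, and Cd5 had 2 UMIs in 2 of the cells and Trac 5 UMIs. Over the 82 other cells their ratios were 3.18 (2.70 to 3.75) for Ptcra, 2.97 (2.25 to 3.92) for Il2ra, 7.19 (4.56 to 11.6) for Id1, 0.400 (0.296 to 0.530) for Id3 and 0.0442 (0.00530 to 0.163) for Cd5. In that comparison 10 of 3141 genes were 2-fold or more higher (0.318%) and 76 lower (2.42%), and 2.48% and 7.67% passed 1.5-fold. The response list had 4 of 4 tested members 1.5-fold or more lower. The out-of-frame cells also had less of the G2 and mitosis genes, 11 of 29 tested being lower and 0 higher, and of the linker histone genes, 5 of 5 lower, with a median of 9 Mki67 and Top2a UMIs. Set against each other, cells without a productive call and out-of-frame cells had Ptcra, Id1 and Il2ra ratios of 1.07, 0.824 and 0.865. Of 2500 genes, 1.24% were 2-fold or more higher and 0.04% lower, and 5.32% and 1.52% passed 1.5-fold. Cells without a productive call over the 82 other cells had 0.443% and 0.626% past 2-fold and 2.22% and 2.4% past 1.5-fold. These comparisons differ in cells and genes tested, and a likeness over all genes was not shown. Since 16 of the 27 cells shared 1 chain as their leading one, the levels of the 27 cells rest largely on the cells of 1 chain. They had 536.9 CPM of Ptcra and 0 Cd5 UMIs, against 83.3 CPM and 45.1 CPM in the 12 cells of the in-frame TRBV13-1 chain. The chain of the 16 cells joins TRBV13-1 to TRBJ2-4. A contig of the same segments with no CDR3 call stood in 11 of the 66 cells without a productive call. Whether these cells hold the same rearrangement was not tested, so the likeness of the groups in the genes named may not be independent.

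**Figure D3:**
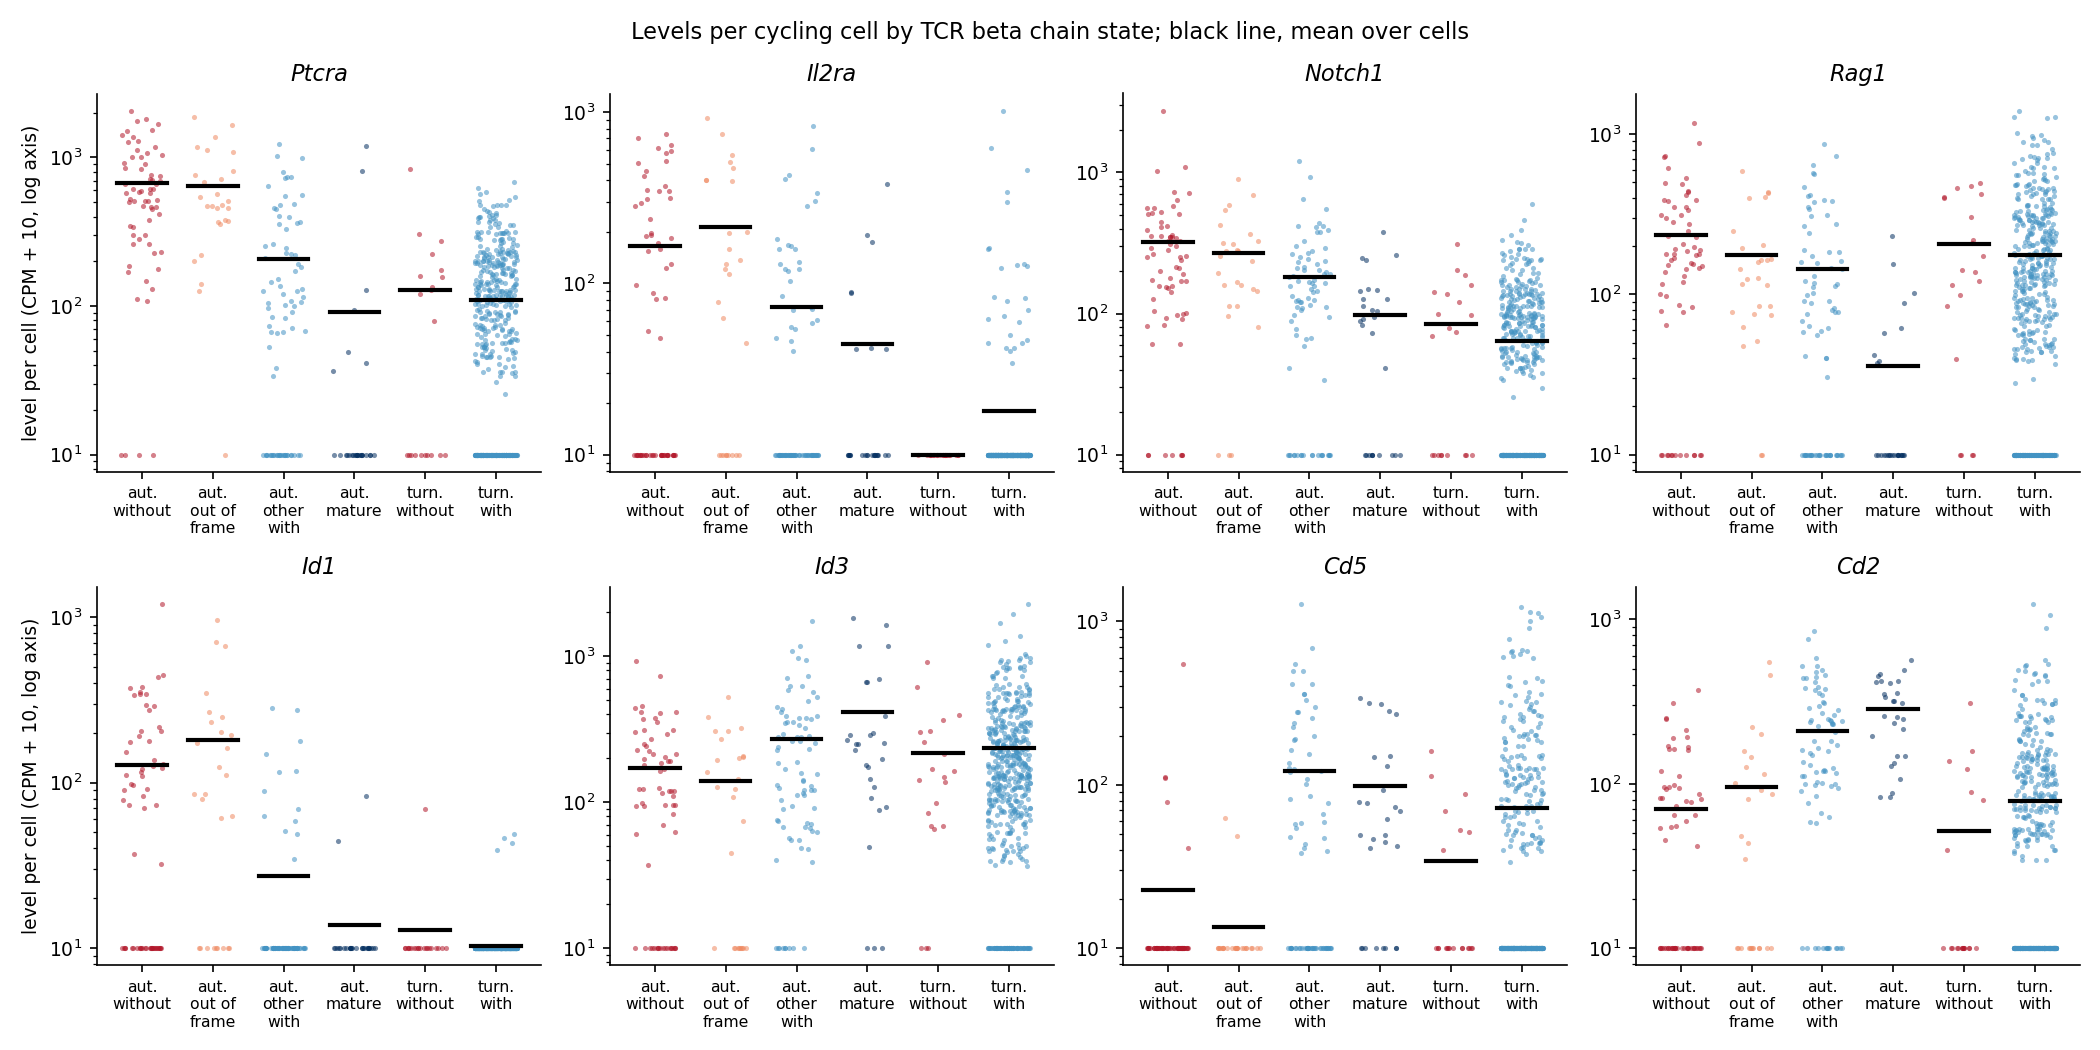
Level per cycling cell (y axis, CPM plus 10 on a log axis) of 8 genes in autonomy (aut.) cells without a productive TRB, with out-of-frame productive calls, with other productive calls and with mature transcripts, and in turnover (turn.) cells without and with a productive TRB. Points are cells and black lines means; Ptcra, Il2ra and Id1 are high and Cd5 low in the first pair of autonomy groups, with 62 of 66 and 26 of 27 cells holding a Ptcra UMI.

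**Figure D4:**
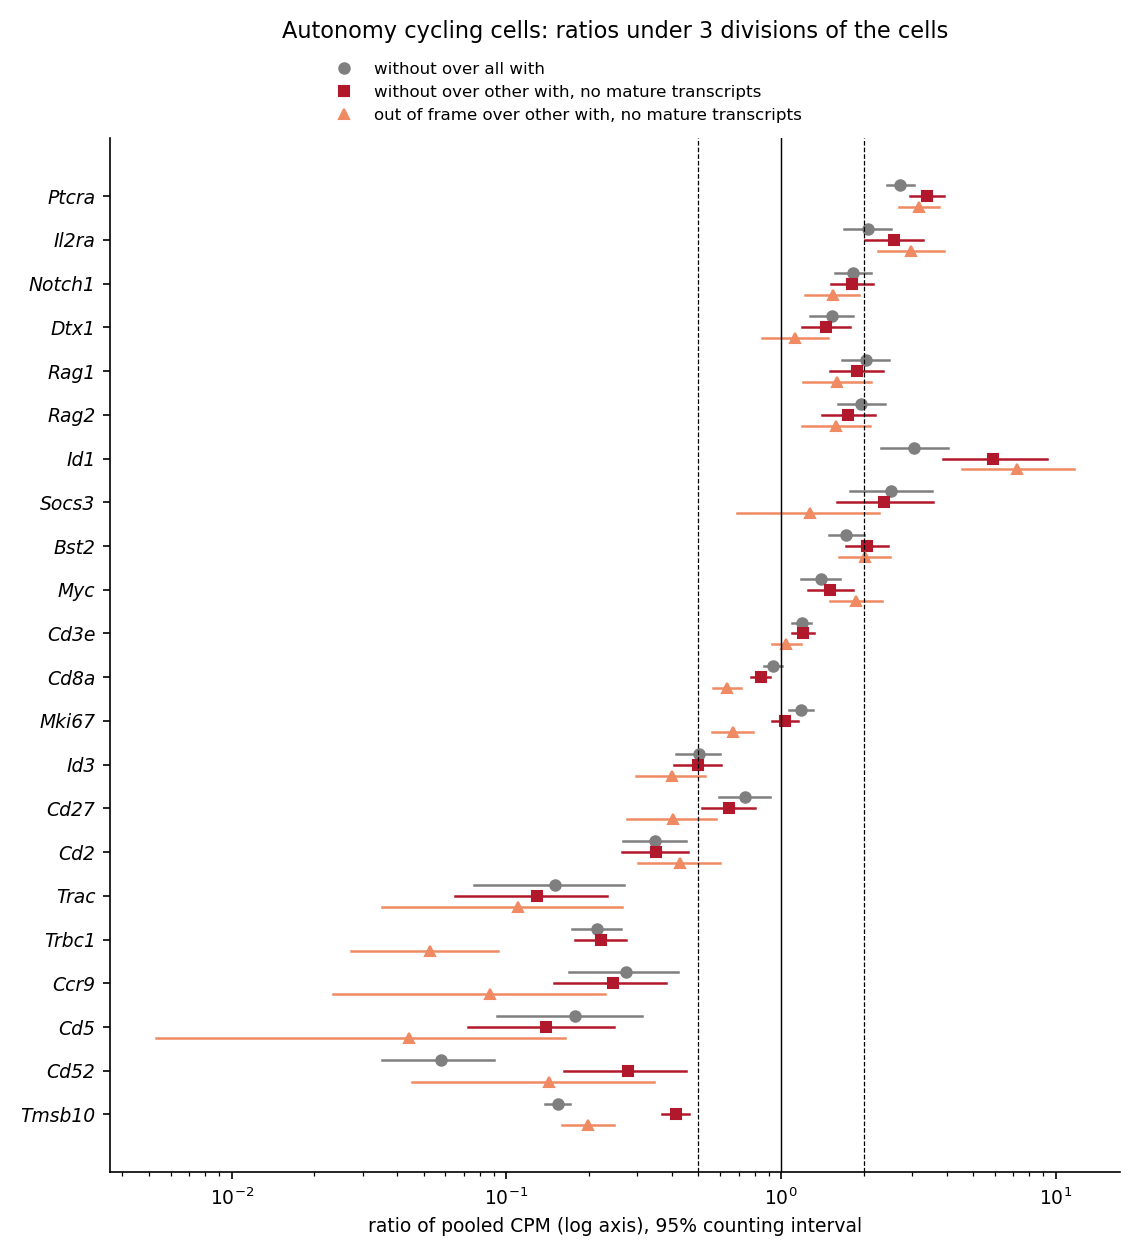
Ratios of pooled CPM (x axis, log) of 22 genes in autonomy cycling cells under 3 divisions, with 95% counting intervals; solid and dashed vertical lines mark 1 and 2-fold. Ptcra is at 2.72, 3.39 and 3.18 and Cd5 at 0.177, 0.140 and 0.0442, while Cd52 moves toward 1 once cells with mature transcripts are left out.

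Free RNA in droplets can give UMIs in cells that do not express a gene, so shares were also taken at 1000 UMIs a cell and set beside 164 autonomy cells with mature transcripts that were not cycling, with a median depth of 7638.5 UMIs. At 1000 UMIs a Ptcra UMI was found in 42.4% of cells without a productive TRB, 37.0% of out-of-frame cells and 17.1% of the 82 other cells, against 4.27% of the mature cells. For Il2ra the shares were 13.6%, 11.1% and 6.10%, against 3.05%, and for Id1 9.09%, 14.8% and 4.88%, against 0 of 164 cells. The intervals of Ptcra in all 3 cycling groups lay above that of the mature cells (1.73% to 8.60%), as did those of Id1 in cells without a productive TRB and in out-of-frame cells. The intervals of Il2ra in all 3 groups and of Id1 in the 82 cells (1.34% to 12.02%) overlapped those of the mature cells, so these shares could not be told from that level.

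The direction of the main genes held in cells of either sex, with sizes that differed. Among cells with Xist, 43 without and 91 with a productive TRB, Ptcra had a ratio of 1.80 (1.58 to 2.06), Id1 1.88 (1.34 to 2.63), Cd5 0.0909 (0.0243 to 0.239) and Il2ra 1.25 (0.948 to 1.64). Among cells with Y-linked transcripts, 14 without and 37 with, Ptcra had a ratio of 8.87 (6.76 to 11.7), Il2ra 5.60 (3.92 to 8.08) and Id1 21.1 (8.87 to 61.0), and Cd5 had 0 against 57 UMIs. Of the 27 out-of-frame cells, 24 had Xist and so stood among the 91 Xist cells with a productive TRB. Against the 82 other cells alone, the Xist cells (43 against 55) had ratios of 2.57, 1.64 and 4.47 for Ptcra, Il2ra and Id1.

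Markers of other cell types differed in level between lists. The 12 macrophage genes summed to at most 12 UMIs a cell without and 121 with a productive TRB, with 5 and 1 of the 12 at 0, and 1 of 66 and 13 of 137 cells had 2 or more macrophage UMIs. The 6 erythroid genes were at 0 in all cells, and 7 of 10 and 6 of 10 stromal genes were at 0. The 9 dendritic genes summed to 312.0 and 206.3 CPM, with 0 to 56 and 0 to 65 UMIs a cell, of which Bst2 gave 292.1 and 169.4 CPM. The 8 B cell genes summed to 205.8 and 246.2 CPM, with 0 to 12 and 0 to 25 UMIs a cell, of which Ighm gave 192.5 and 239.3 CPM, and 3 and 1 dendritic and 6 and 5 B cell genes were at 0. A gamma or delta constant gene UMI was found in 42 of 66 cells without and 82 of 137 cells with a productive TRB. The 13 gamma-delta genes summed to 287.3 and 429.0 CPM, with 0 to 18 and 0 to 76 UMIs a cell and 2 of 13 at 0 in each group, and the 13 innate lymphoid genes to 224.8 and 583.6 CPM, with 10 and 6 at 0. Their part in the lower genes was not tested beyond the values without these cells given in the closing part.

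**Figure D5:**
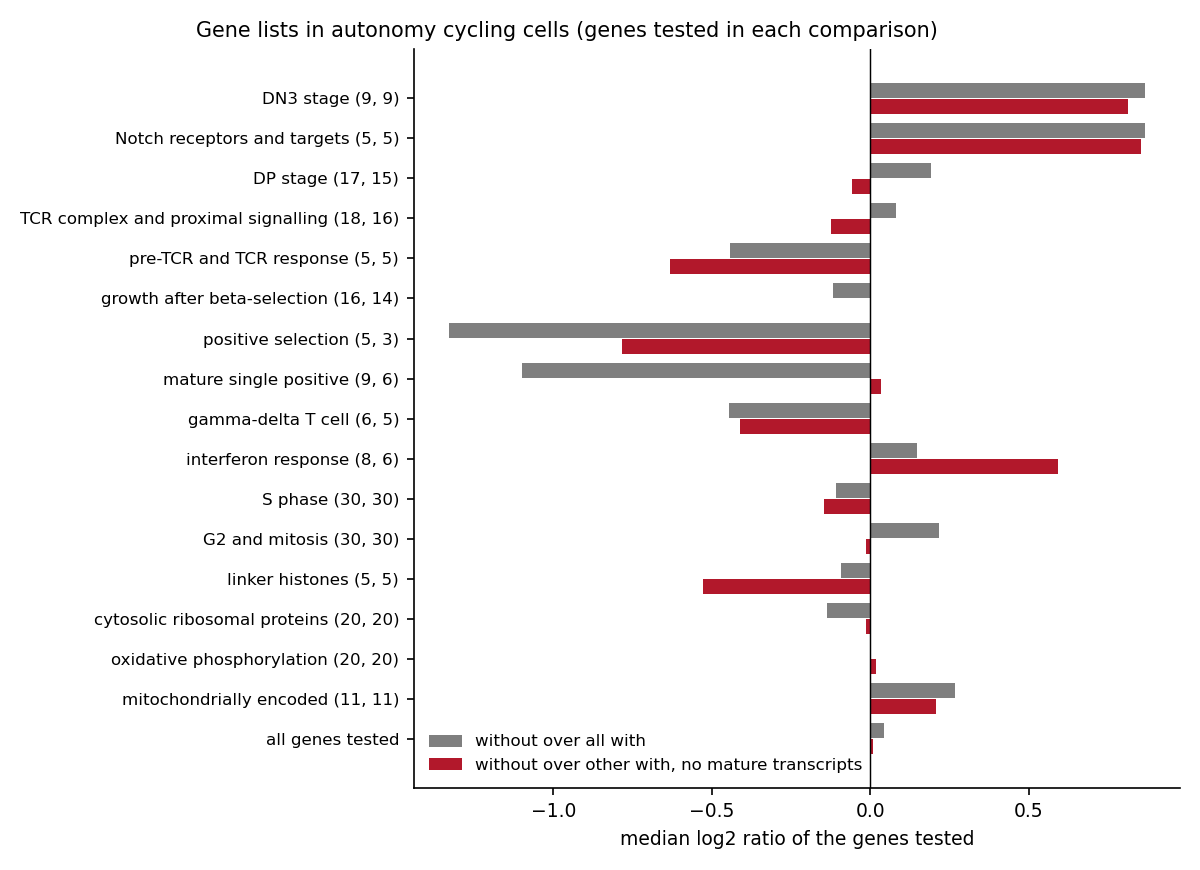
Median log2 ratio (x axis) of the tested genes of 16 lists and of all genes in autonomy cycling cells, without over all cells with a productive TRB (grey) and over the 82 other cells without mature transcripts (red); the numbers of genes tested stand in brackets. The DN3 list is at 0.87 and 0.81, the pre-TCR and TCR response list at -0.44 and -0.63, and the mature list at -1.10 and 0.03, a list that holds Klf2, Gimap4 and Ms4a4b, by which the mature cells were left out.

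In turnover the same division compared 21 cells, with 302892 UMIs in all, with 521 cells, so its ratios are far less precise. Of 6807 genes with 100 or more UMIs, 111 were 2-fold or more higher (1.63%) and 423 lower (6.21%) without a productive TRB, but among genes with 30 or more UMIs expected in the smaller group these were 2 and 16. Ptcra had 145.3 CPM without and 101.3 CPM with a productive TRB in turnover, a ratio of 1.43 (1.04 to 1.94). The autonomy ratio over this one was 1.90 (1.38 to 2.61). Il2ra had 0 UMIs in the 21 cells and 9.53 CPM in the 521, Dtx1 0 and 3.07 CPM, and Id1 1 UMI and 4 UMIs, so these genes gave no comparison of ratios. The autonomy levels of Il2ra, Dtx1 and Id1 in cells with a productive TRB (85.8, 123.4 and 34.75 CPM) were above those of both turnover groups.

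Rag1 and Rag2 had turnover ratios of 1.41 (1.04 to 1.86) and 1.53 (1.14 to 2.01), and the autonomy ratio over the turnover ratio was 1.44 (1.03 to 2.02) and 1.28 (0.917 to 1.80). Cd5, Id3 and Trac had turnover ratios of 0.563 (0.225 to 1.17), 0.906 (0.678 to 1.19) and 0.884 (0.512 to 1.43), and autonomy ratios over these of 0.315 (0.124 to 0.803), 0.553 (0.399 to 0.765) and 0.170 (0.0800 to 0.362). Trbc1 and Trbc2 were higher without a productive TRB in turnover, at 1.39 (1.22 to 1.58) and 1.47 (1.36 to 1.58). With 9.36% of turnover genes past 1.5-fold higher and 14.6% lower, the DN3 list had 1 of 7 tested members higher and 0 lower, and the response list 0 higher and 1 of 5 lower. In the growth list 6 of 17 members were lower and 0 higher, among them Myc, with 4 UMIs in the 21 cells and 1365 in the 521, a ratio of 0.0945 (0.0257 to 0.242). Cd4 was higher at 2.02 (1.499 to 2.68). Gm13919, Mtg2, Eri2, Mdc1, Pde4b and Sytl3 were the highest genes in turnover, at 2.62 to 2.99, and after Myc the lowest were 5830405F06Rik, Cul4b, Ntpcr, Pus7 and Insig2, with 1 UMI each in the 21 cells. Of the 21 cells, 7 carried an in-frame TRBV12-1 chain called unproductive, 11 had no full-length TRB contig, and whether these lacked a beta chain was not tested.

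Within a chain state the libraries could also be compared, but condition and library cannot be told apart there and the ratios use the same 4 cell groups as those above. Without a productive TRB (66 autonomy cells over 21 turnover cells), 147 of 2143 genes were 2-fold or more higher in autonomy (6.86%) and 13 lower (0.607%), with 17.8% and 3.08% past 1.5-fold. With a productive TRB (137 over 521 cells), 461 of 7440 genes were 2-fold or more higher in autonomy (6.2%) and 74 lower (0.995%), with 18.5% and 3.84% past 1.5-fold and the 27 out-of-frame and 28 mature cells on the autonomy side. Ptcra had autonomy over turnover ratios of 4.33 (3.19 to 6.02) without and 2.29 (2.07 to 2.53) with a productive TRB, and Notch1 of 4.01 (2.57 to 6.57) and 2.50 (2.20 to 2.83). Dtx1 was at least 19.1-fold higher without a productive TRB, against 0 UMIs in turnover with a floor of 3 counts over the group, and 40.2-fold higher (27.6 to 60.5) with one. Il2ra was at least 17.9-fold higher by the same floor without and 9.01-fold higher (7.06 to 11.6) with a productive TRB.

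Recombinase genes did not follow that order. Rag1 had autonomy over turnover ratios of 1.03 (0.756 to 1.43) without and 0.715 (0.620 to 0.822) with a productive TRB, the first interval including 1, and Rag2 of 0.965 (0.706 to 1.34) and 0.751 (0.650 to 0.865). Trac had ratios of 0.203 (0.0884 to 0.451) and 1.19 (1.01 to 1.40), and Trbc1 of 0.118 (0.0931 to 0.149) and 0.773 (0.727 to 0.821). Both were lower in autonomy without a productive TRB, and Trbc1 less so with one. Cd4, Cd8b1 and Ccr9, which mark the way to the DP stage, were at 0.492 (0.345 to 0.706), 0.504 (0.451 to 0.565) and 0.184 (0.104 to 0.318) without a productive TRB. With one they were at 0.871 (0.743 to 1.02), 0.718 (0.686 to 0.751) and 0.577 (0.498 to 0.665). Myc was 16.3-fold higher (6.28 to 60.3) in autonomy without and at 1.11 (0.989 to 1.23) with a productive TRB, the first ratio resting on 4 turnover UMIs.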

How the data were processed

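Gene expression was deposited as counts of UMIs per gene and barcode, and V(D)J data as 1 row a contig, with its UMI count, segments, CDR3 bases and productive call. Per the submitters' processing notes, Cell Ranger 3.0.2, Seurat 3.1.3.9002 and mm10 were used; for cell calling, annotation and the V(D)J reference, settings are not given in the sources used here. The deposited tables held 4587 autonomy barcodes with 16388810 UMIs and 4374 turnover barcodes with 20163286 UMIs, and V(D)J contigs with 105865 and 177475 UMIs. Gene expression and V(D)J barcodes were joined between the tables of a condition by their sequence. The coordinates are those of RefSeq (GRCm38.p6), in which 25166 of the 31053 symbols were found.

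UMIs were summed over the cells of a group and scaled to CPM. Ratios carry a conditional exact binomial interval and shares an exact Clopper-Pearson interval. Genes needed 100 UMIs over both groups, called means past 2-fold, and gene lists were counted at 1.5-fold. A group with 0 UMIs was bounded with a floor of 3 counts over the group. No p-value was computed, since cells of 1 library are not replicates. Named were the 12 highest and 12 lowest genes in autonomy, the 6 highest and 6 lowest in turnover, the 2 members of each list farthest from the median gene, and a set always reported, 120 genes in all, of which the text gives a part; TCR segment, Xist and Y-linked genes were kept out of the rankings. The cells, the gene lists and the comparisons were chosen with earlier results of these data known. The usual CDR3 start of a V segment was the most frequent first 6 bases over its distinct productive chains. Cells with under 5000 UMIs were left out, 22 cycling turnover and 0 autonomy barcodes were left out for no Cd8 UMI, and doublets were not called. The ratio calculation was tested on simulated data. Alternatives covered the count minimum, thinning, TMM factors, the limits on Mki67 and Top2a, Cd8, Cd4 and mitochondrial UMIs, the productive call, sex, shared chains and cells with other transcripts. TMM factors came from edgeR 4.0.16 in R 4.3.3, and the rest was computed in Python 3.11.15 with pandas 2.3.3, numpy 2.4.6, scipy 1.17.1 and matplotlib 3.10.9.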

Additional observations from a re-analysis of the deposited data

Results flagged for a closer look

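For 5 genes the ratio without over with a productive TRB lay on opposite sides of 1 in the libraries, 1.5-fold or more from 1 and with an interval that excludes 1 in each; the difference between the libraries was not tested. Hist2h2bb had a ratio of 3.23 (2.64 to 3.95) in autonomy and 0.413 (0.230 to 0.684) in turnover, and 1.45 in autonomy without the 1 cell that held most of its UMIs. Gm42743 had a ratio of 2.53 (2.03 to 3.15) in autonomy and 0.468 (0.281 to 0.734) in turnover, and 1.14 in autonomy without its highest cell. The ratio of 5830405F06Rik was 1.68 (1.08 to 2.61) in autonomy and 0.0959 (0.00242 to 0.538) in turnover, the turnover value resting on 1 UMI in the 21 cells. In autonomy 1 cell held 16 of the 36 UMIs of 5830405F06Rik without a productive TRB, and without that cell the ratio was 0.944. Ifi27l2a, an interferon-induced gene, had a ratio of 0.475 (0.382 to 0.586) in autonomy, where 435 of the 579 UMIs with a productive TRB lay in the cells with mature transcripts, and 3.72 (1.64 to 7.43) in turnover, on 9 UMIs in the 21 cells. Bst2 had a ratio of 1.72 (1.49 to 1.99) in autonomy and 0.642 (0.396 to 0.987) in turnover. In autonomy its ratio was 1.45, under 1.5-fold, without the 1 cell that held 56 of the 308 UMIs without a productive TRB. It was 1.25 without cells with gamma-delta constant or macrophage UMIs.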

How the results depend on the processing

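No paired analysis was possible because each condition had 1 library and the comparisons come from no test. The numbers of genes past 2-fold in autonomy were 22 higher and 50 lower, and in turnover 111 and 423. They moved with the count minimum: at 20 UMIs 195 were higher and 290 lower in autonomy and 470 higher in turnover; at 500 UMIs the numbers were 2 and 13, and 7 and 43. With 30 or more UMIs expected in the smaller group the turnover numbers were 2 and 16. After thinning each cell to 5000 UMIs they were 5 and 20 in autonomy and 54 and 263 in turnover. With a Cd4 UMI required, 7 were higher in autonomy and 53 in turnover. In cells with Xist, 5 were higher and 32 lower; in cells with Y-linked UMIs, 14 were higher in autonomy and 189 in turnover. With 1 cell per chain, 49 were higher in autonomy. Without cells with gamma-delta constant or macrophage UMIs the numbers were 5 and 24 in autonomy and 16 and 189 in turnover, where the share without a productive TRB was 6.53%. Added after the data were seen, the split by reading frame gave a share of 44.8% in autonomy and 231 higher genes in turnover. Leaving out cells with mature transcripts gave 9 higher and 23 lower genes in autonomy, and both steps together 12 higher in autonomy, 219 higher in turnover and a share of 51.7% in autonomy. Without cells with a productive TRA, 30 were lower in autonomy. Between the libraries, 160 genes were 2-fold apart without and 535 with a productive TRB. All alternatives for these numbers were added after the data were seen: they gave 1118 and 1178 at a minimum of 20 UMIs, 17 and 132 at 500, 40 and 230 after thinning, 73 and 340 with Cd4 required, and 47 and 274 without gamma-delta constant or macrophage UMIs. Without a productive TRB there were also 106 with 30 UMIs expected, 48 in cells with Y-linked UMIs, 269 with the frame split and 265 with both steps, and with one 124 where a productive TRA was required. With any TRB contig counted as a chain the shares were 0 in both libraries.

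Among 38 autonomy genes past 2-fold that are named by rule, 9 of 746 values under the alternatives crossed 1, in 5 genes. With Cd4 required, Hist2h2bb was at 0.529, Hist1h2ak at 0.488 and Gm42743 at 0.446. Gm42743 was at 0.831 in cells with Y-linked UMIs. Without gamma-delta constant or macrophage UMIs, Hist1h2ak was at 0.824 and Arhgef10l at 0.4996. Ifi27l2a was at 1.33 without mature cells, 1.19 with the frame split as well, and 1.22 without productive TRA. In turnover 1 of 456 values crossed 1, Gm13919 at 0.967 after thinning. The cause of these changes was not tested. Ptcra ranged between 1.80 and 8.87, Il2ra between 1.25 and 5.60, Id1 between 1.77 and 21.1, Id3 between 0.213 and 0.828, and Cd5 between 0.0328 and 0.297 over 20 or 21 alternatives. TMM factors moved the autonomy median by 0.07 on the log2 scale.

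Depth limits the turnover side most, with 302892 UMIs in 21 cells. No cell lacked a TRB contig of any kind, fewer than 5 cells without a productive TRB had a productive TRA, and turnover cells had no Xist, so these divisions gave no value.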

Other observations

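Gene groups outside the chain checkpoint gave further values for autonomy cycling cells without over with a productive TRB. In the glycolysis list 1 of 12 tested genes was 1.5-fold or more lower, the aldolase gene Aldoa at 0.554 (0.456 to 0.668), and 0 were higher. Of 12 tested T lineage transcription factor genes 1 was lower, Tox, and 0 higher, with Gata3 at 0.676 (0.483 to 0.929) and at 1.01 with a Cd4 UMI required, Tcf7 at 0.991 (0.913 to 1.07) and Bcl11b at 0.964 (0.797 to 1.16). Of 6 tested CDK inhibitor and D cyclin genes 0 passed 1.5-fold, with Cdkn1b, an inhibitor of cell cycle entry, at 1.49 (1.12 to 1.956) and Ccnd3, the D cyclin of proliferating pre-T cells, at 0.917 (0.867 to 0.969). The cholesterol synthesis list had 1 of 9 higher and 0 lower, the immediate early list 0 of 4 in either direction, the apoptosis list 1 of 10 lower (Casp8) and the p53 list 1 of 8 higher (Btg2). The innate lymphoid list had 2 of 2 lower, Nkg7 and Gzma, a granzyme gene at 0.450 (0.390 to 0.517), and the gamma-delta list 3 of 6 lower. Nkg7 is among the genes that define the cells with mature transcripts, and Gzma was at 0.876 with a Cd4 UMI required. No member of the progenitor, macrophage and erythroid lists had enough UMIs, and the dendritic, B cell and stromal lists had 1 tested member each. The progenitor list summed to 1 UMI in the 66 cells and 7 in the 137.

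Ptcra, Il2ra and Id1 in the 14 Y-linked cells without a productive TRB (794.2, 346.0 and 153.3 CPM) were above those of the 43 Xist cells without one (546.2, 117.7 and 91.5 CPM), a difference for which these data give no test.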
